A study of Mus musculus with 20 samples.

Results

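The comparison described here sets livers of orchiectomised male mice kept under intermittent hypoxia (ORX_IH, 5 mice) against livers of sham-operated mice kept in normoxia (Sham_Nx, 4 mice). These 9 libraries were chosen by their labels from 19 analysed libraries, and the comparison measures the joint effect of both treatments over all expressed genes. Orchiectomy removes the testes, and sham surgery leaves them in place. Intermittent hypoxia is a repeated brief fall in inspired oxygen, used in rodents to model sleep apnoea, and normoxia is room air. Each exposure lasted 2 weeks. The remaining libraries came from mice with orchiectomy alone (ORX_Nx, 5 mice) and from mice with intermittent hypoxia alone (Sham_IH, 5 mice). Poly(A) RNA from whole frozen liver was sequenced, and each library is a different mouse. Sham_Nx mouse 1 was not analysed here, and the mice's strain, their age and the cycle of the hypoxia are not given in the sources used here. The series' title names a joint action of low testosterone and intermittent hypoxia on flavin-containing monooxygenases, the oxygen-dependent enzymes that oxidise nitrogen and sulphur in drugs and dietary amines.

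The liver of mice differs between the sexes in the level of many transcripts. In males the pituitary releases growth hormone in pulses, a pattern that testicular androgen maintains. Each pulse activates the transcription factor STAT5b, which keeps male-biased genes on and, with the repressor BCL6, keeps female-biased genes low. CUX2 is a repressor normally found in female liver. Low oxygen acts on another route, in which hypoxia-inducible factors (HIFs) escape degradation and activate genes of glycolysis, iron handling and vessel growth.

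Promoter sequences of genes at both ends of the response are given first, because the strongest rises and falls belonged to genes of a shared sex bias. They are the 3 largest rises and 3 largest falls, with 1 gene of a name family, that had an entry in the RefSeq promoter table of build GRCm38.p6. Each runs 5′ to 3′ from 250 bases before to 50 bases after the annotated start, and capitals mark any match on either strand to TTCNNNGAA (the core that STAT proteins bind), AGAACA (an arm of the palindrome bound by androgen and glucocorticoid receptors) or ACGTG (the core bound by HIFs, which also lies inside the E-box of clock proteins). The rises are Cyp2b13 at chr7:26061245-26061544 (+ strand), Sult3a1 at chr10:33857472-33857771 (+ strand) and Slc22a26 at chr19:7802618-7802917 (- strand). The falls are Serpina1e at chr12:103956848-103957147 (- strand), Selenbp2 at chr3:94693323-94693622 (+ strand) and Nat8f5 at chr6:85820923-85821222 (- strand).
Cyp2b13: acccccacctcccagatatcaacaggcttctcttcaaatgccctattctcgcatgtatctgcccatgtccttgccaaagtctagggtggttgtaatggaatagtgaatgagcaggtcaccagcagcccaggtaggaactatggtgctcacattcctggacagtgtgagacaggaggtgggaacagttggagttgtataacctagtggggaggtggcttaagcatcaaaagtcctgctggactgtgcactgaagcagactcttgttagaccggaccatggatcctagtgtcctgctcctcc
Sult3a1: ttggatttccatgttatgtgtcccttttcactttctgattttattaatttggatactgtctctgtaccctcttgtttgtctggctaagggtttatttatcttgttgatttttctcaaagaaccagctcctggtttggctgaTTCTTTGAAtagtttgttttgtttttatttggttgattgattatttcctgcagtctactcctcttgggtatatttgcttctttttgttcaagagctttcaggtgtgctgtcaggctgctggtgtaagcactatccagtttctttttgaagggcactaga
Slc22a26: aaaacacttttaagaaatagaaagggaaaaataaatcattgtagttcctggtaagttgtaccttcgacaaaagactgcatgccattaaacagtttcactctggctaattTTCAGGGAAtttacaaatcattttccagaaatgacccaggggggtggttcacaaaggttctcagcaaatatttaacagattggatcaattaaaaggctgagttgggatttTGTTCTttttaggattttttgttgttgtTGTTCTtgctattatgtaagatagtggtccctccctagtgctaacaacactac
Serpina1e: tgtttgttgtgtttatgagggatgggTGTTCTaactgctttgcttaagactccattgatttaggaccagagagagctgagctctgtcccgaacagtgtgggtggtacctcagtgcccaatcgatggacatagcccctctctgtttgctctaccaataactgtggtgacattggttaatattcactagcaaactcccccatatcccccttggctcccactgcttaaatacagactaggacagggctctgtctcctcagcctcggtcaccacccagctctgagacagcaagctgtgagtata
Selenbp2: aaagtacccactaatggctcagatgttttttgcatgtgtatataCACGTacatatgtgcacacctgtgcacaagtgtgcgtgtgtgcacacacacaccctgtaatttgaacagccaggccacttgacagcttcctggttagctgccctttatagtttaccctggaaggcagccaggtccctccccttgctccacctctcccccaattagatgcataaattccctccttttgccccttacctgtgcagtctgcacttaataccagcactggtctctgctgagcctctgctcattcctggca
Nat8f5: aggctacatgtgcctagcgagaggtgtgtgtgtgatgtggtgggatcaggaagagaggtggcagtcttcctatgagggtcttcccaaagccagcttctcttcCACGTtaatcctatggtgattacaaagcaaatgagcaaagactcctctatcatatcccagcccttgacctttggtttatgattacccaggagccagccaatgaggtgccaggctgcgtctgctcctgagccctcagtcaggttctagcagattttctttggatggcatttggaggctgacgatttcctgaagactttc
Sult3a1 and Slc22a26 each held 1 TTCNNNGAA, Slc22a26 held 2 AGAACA and Serpina1e held 1, Selenbp2 and Nat8f5 each held 1 ACGTG, and no match lay in the Cyp2b13 window. TTCNNNGAA was present in 9.82% of 112 promoters of genes that were at least 2-fold higher, 8.75% of 80 promoters of genes at least 2-fold lower and 7.30% of 12023 promoters of all tested genes with an entry. AGAACA was present in 19.6%, 15.0% and 13.9% of the same sets. ACGTG was present in 11.6% of promoters of the higher genes, 27.5% of those of the lower genes and 23.8% of all. These shares describe letters in a 300-base window and are not binding sites.

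Expression is given as CPM, counts per 1e+06 counts of a library, with library sizes scaled by edgeR's trimmed mean of M-values (TMM), and a gene was called at an adjusted p under 0.05 in edgeR's quasi-likelihood test. Of 16164 tested genes, 1385 (8.57%) were called in ORX_IH against Sham_Nx, 564 higher (3.49%) and 821 lower (5.08%) in ORX_IH livers. At least a 2-fold difference was reached by 297 genes (1.84%), 163 of them higher (1.01% of genes tested) and the rest lower (0.829%), and at least a 4-fold difference by 57 higher (0.353%) and 61 lower genes (0.377%). The median log2 fold change of all tested genes was 0.02. The split depended on the scaling, since 749 of 1315 calls (57.0%) were higher with upper-quartile scaling and 1145 of 1501 (76.3%) with no scaling factors, where the median of all genes lay at 0.13. CPM did not overlap between the groups for 920 genes that were higher (5.69%) and 1114 that were lower (6.89%). The called higher genes together held 6.15 to 6.71% of scaled counts in the ORX_IH libraries and 4.16 to 4.53% in the Sham_Nx libraries. The called lower genes held 8.99 to 10.3% in the ORX_IH libraries, against 18.1 to 21.1% in the Sham_Nx libraries. Both sets were chosen from these same libraries, so the direction of these 2 differences was fixed by the choice.

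**Figure D1:**
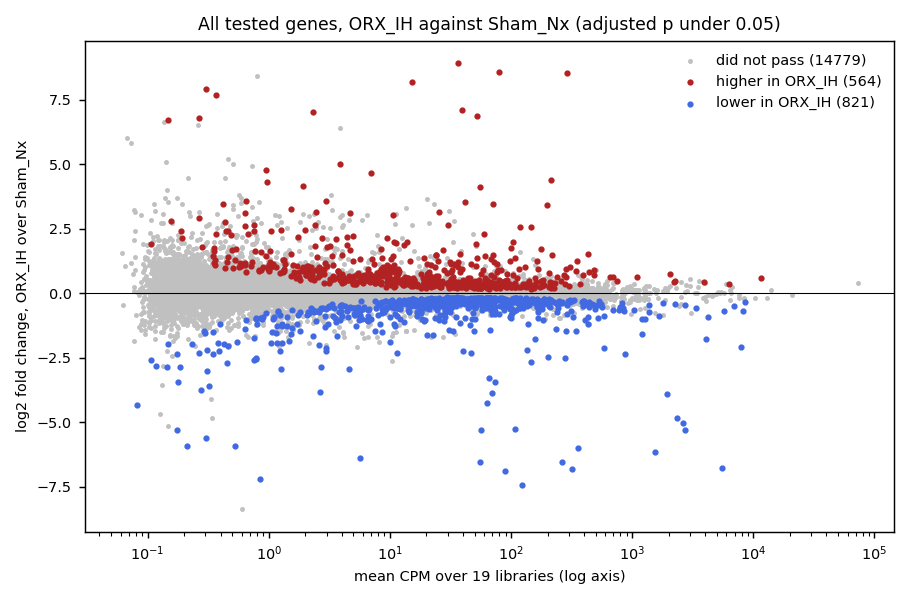
Log2 fold change of ORX_IH over Sham_Nx against mean CPM over 19 libraries (log axis) for 16164 tested genes, 1 point a gene, with 564 called higher in red, 821 called lower in blue and the rest in grey. Most called genes lie within 2-fold of no difference.

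The 19 libraries held 29.3 to 69.6 M counts (M, 1e+06), the ORX_IH libraries 35.7 to 67.3 M and the Sham_Nx libraries 50.9 to 65.8 M. Several libraries held transcripts of neighbouring tissue. Summed over 21 skeletal muscle genes, ORX_IH 1 had 1458 CPM, ORX_IH 2 had 874, Sham_Nx 2 had 251 and Sham_Nx 3 had 67.0, against 14.6 to 23.3 CPM in the other 5 libraries compared. Pancreatic acinar genes reached 267 CPM in ORX_IH 1 and 612 CPM in Sham_Nx 5, against 5.89 to 15.5 CPM in the other 7. With ORX_IH 1 and 2 and Sham_Nx 2 and 3 left out, so that 3 mice faced 2, 118 genes were called, 116 of them among the 1385. Without the 3 libraries highest in pancreatic genes (these and Sham_IH 5) 494 were called, without Sham_Nx 2 the count was 783 and without Sham_Nx 5 it was 800. Hepatocyte identity genes such as Alb (albumin, 79663 ± 6972 CPM in ORX_IH livers and 60135 ± 5756 CPM in Sham_Nx livers, adjusted p = 0.0959) were abundant in each of these libraries. Of 13 tested genes of this list, Ahsg and Fgb were called higher and Apob and Serpina1c lower. The calls of Ahsg, Fgb and Apob were lost without some single libraries. The list's sum did not overlap, at 123485 to 146779 CPM in ORX_IH libraries and 111243 to 122796 CPM in Sham_Nx libraries. In whole tissue, fewer cells of a type and less RNA per cell cannot be told apart.

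Female-biased genes rose together in ORX_IH livers. Of 30 tested members of the list, 21 were higher and 0 were lower, against 3.49% and 5.08% of all genes, and their median log2 fold change was 3.23. This list was chosen with earlier results of these data known and holds members of shared families. The count therefore describes the list only. The higher members were cytochromes P450 that hydroxylate steroids and drugs, sulphotransferases, organic anion transporters and the prolactin receptor. Cyp2b13, a P450, had 39.9, 49.4, 58.6, 46.8 and 68.8 CPM in ORX_IH mice 1 to 5, against 0.0203, 0, 0.355 and 0.0173 CPM in Sham_Nx mice 2 to 5 (log2 fold change 8.92 ± 1.11, adjusted p = 0.000175). The Sham_Nx libraries held 24 counts of it in all, so that the size of its fold change is loosely known. With limma-voom as the test Cyp2b13 was not called (adjusted p = 0.189). Cyp2b9, its neighbour in the family, had 409, 569, 575, 608 and 547 CPM in ORX_IH mice 1 to 5, against 0.831, 0.496, 2.76 and 1.61 CPM in Sham_Nx mice 2 to 5 (log2 fold change 8.55 ± 1.14, adjusted p = 0.000298). ORX_IH livers were all high for both genes. The groups did not overlap for either, which the naming rule required.

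Sult3a1, a sulphotransferase, had 45.4, 47.4, 59.7, 23.1 and 45.9 CPM in ORX_IH mice 1 to 5, against 0.0203, 0, 0.485 and 0.0519 CPM in Sham_Nx mice 2 to 5 (log2 fold change 8.19 ± 0.94, adjusted p = 8.15e-05). Slc22a26, an organic anion transporter, had 77.1, 44.4, 80.7, 39.8 and 55.9 CPM in ORX_IH mice 1 to 5, against 0.446, 0.386, 0.517 and 0.381 CPM in Sham_Nx mice 2 to 5 (log2 fold change 7.10 ± 0.41, adjusted p = 9.13e-08). Cyp2a4, which hydroxylates testosterone, had 39.8, 39.9, 115.2, 116 and 77.0 CPM in ORX_IH mice 1 to 5, against 0.324, 1.16, 0.355 and 0.813 CPM in Sham_Nx mice 2 to 5 (log2 fold change 6.87 ± 0.66, adjusted p = 1.81e-05). Each of these 3 was low in all Sham_Nx mice, and ORX_IH mouse 4 had the lowest Sult3a1 and Slc22a26 but the highest Cyp2a4 of its group. Smaller or scarcer members moved the same way. Cyp3a44 averaged 6.02 ± 2.88 CPM in ORX_IH livers and 0.0435 ± 0.0539 CPM in Sham_Nx livers (log2 fold change 7.01 ± 0.93, adjusted p = 0.000198), with 10 counts over the Sham_Nx libraries. Slc22a27 averaged 11.3 ± 3.66 CPM in ORX_IH livers and 0.448 ± 0.352 CPM in Sham_Nx livers (log2 fold change 4.64 ± 0.55, adjusted p = 8.15e-05), and Cyp2c69 averaged 415 ± 195 CPM in ORX_IH livers and 19.7 ± 15.3 CPM in Sham_Nx livers (log2 fold change 4.39 ± 0.73, adjusted p = 0.00148). Hao2, a hydroxyacid oxidase, averaged 1.92 ± 1.74 CPM in ORX_IH livers and 0.0597 ± 0.0493 CPM in Sham_Nx livers (log2 fold change 4.99 ± 0.93, adjusted p = 0.00309), with a spread in ORX_IH nearly as large as its mean. The call of Hao2 was lost with limma-voom. Prlr, the prolactin receptor, was abundant in both groups, at 389.9 ± 65.3 CPM in ORX_IH livers and 193 ± 17.4 CPM in Sham_Nx livers (log2 fold change 1.02 ± 0.14, adjusted p = 0.000209). Members that did not pass included Sult2a1 at 2.83 (adjusted p = 0.0713), Sult1e1 at 1.30 (adjusted p = 0.24) and Lifr at -0.04 (adjusted p = 0.958), all log2 fold changes. The count of higher members was 9 without the 4 muscle-rich libraries, 17 without the 3 pancreas-rich libraries and 18 to 21 when any 1 library was left out.

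Male-biased genes fell together in ORX_IH livers. Of 30 tested members, 23 were lower and 0 were higher, against 5.08% and 3.49% of all genes, with a median log2 fold change of -2.57. This list was chosen with earlier results of these data known. It also holds near-identical copies, so its members are not independent and the count describes the list only. The members encode major urinary proteins, which carry pheromones into urine, fatty acid hydroxylases, steroid enzymes and serpins. Cyp4a12a, the hydroxylase that makes the vasoconstrictor 20-HETE, had 1.47, 1.73, 1.49, 4.96 and 1.62 CPM in ORX_IH mice 1 to 5, against 491, 355, 378 and 338 CPM in Sham_Nx mice 2 to 5 (log2 fold change -7.42 ± 0.64, adjusted p = 8.27e-06). Its near copy Cyp4a12b had 0.346, 2.22, 1.09, 4.07 and 1.81 CPM in ORX_IH mice 1 to 5, against 174, 153.8, 228 and 157 CPM in Sham_Nx mice 2 to 5 (log2 fold change -6.56 ± 0.73, adjusted p = 7.29e-05). Both were low in each ORX_IH mouse, with mouse 4 the highest of the 5. Elovl3, an elongase of very long fatty acids, had 2.41, 2.5, 2.69, 7.15 and 3.62 CPM in ORX_IH mice 1 to 5, against 218, 107, 117 and 142 CPM in Sham_Nx mice 2 to 5 (log2 fold change -5.30 ± 0.54, adjusted p = 2.94e-05). Selenbp2, a selenium-binding protein, had 5.39, 7.58, 6.13, 17.1 and 5.67 CPM in ORX_IH mice 1 to 5, against 228, 92.5, 243 and 75.3 CPM in Sham_Nx mice 2 to 5 (log2 fold change -4.24 ± 0.58, adjusted p = 0.000333). ORX_IH mouse 4 was again the highest of its group for both genes. No value overlapped with Sham_Nx, as the naming rule required. Hsd3b5, a steroid dehydrogenase of male liver, averaged 11.3 ± 9.86 CPM in ORX_IH livers and 121.7 ± 69.2 CPM in Sham_Nx livers (log2 fold change -3.43 ± 0.61, adjusted p = 0.00249). Serpina1e, an antitrypsin paralogue, averaged 129.6 ± 113 CPM in ORX_IH livers and 5077 ± 1275 CPM in Sham_Nx livers (log2 fold change -5.29 ± 1.07, adjusted p = 0.0062), and its call was lost without ORX_IH 1 and ORX_IH 2. Serpina4-ps1, a transcribed pseudogene, averaged 14.7 ± 7.72 CPM in ORX_IH livers and 143.1 ± 117 CPM in Sham_Nx livers (log2 fold change -3.28 ± 0.56, adjusted p = 0.00205), and Nat8f5, of the N-acetyltransferase 8 family, averaged 0.455 ± 0.399 CPM in ORX_IH livers and 6.67 ± 1.52 CPM in Sham_Nx livers (log2 fold change -3.85 ± 0.48, adjusted p = 8.35e-05). The list's count was 11 without the 4 muscle-rich libraries, 21 without the 3 pancreas-rich libraries and 21 to 25 when any 1 library was left out.

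The major urinary protein genes made up a visible part of the library. The 22 Mup genes took 0.693, 0.831, 0.448, 1.13 and 0.65% of counts in ORX_IH mice 1 to 5, against 7.02, 4.69, 6.48 and 5.88% in Sham_Nx mice 2 to 5. The means were 0.751 ± 0.254% in ORX_IH (SD, n = 5) and 6.02 ± 0.997% in Sham_Nx (SD, n = 4), and the exact two-sided permutation p was 0.00794, the smallest that the possible splits of 9 mice allow. Every ORX_IH library lay below every Sham_Nx library. Of 21 tested genes of this family 19 were lower and 0 were higher, against 5.08% and 3.49% of all genes. Mup20 (darcin, a pheromone protein) had 87.1, 123, 135.9, 334 and 84.0 CPM in ORX_IH mice 1 to 5, against 5053, 5751, 4610.3 and 4821 CPM in Sham_Nx mice 2 to 5 (log2 fold change -5.05 ± 0.49, adjusted p = 1.47e-05). Mup7 averaged 137.7 ± 182 CPM in ORX_IH livers and 15191 ± 4486 CPM in Sham_Nx livers (log2 fold change -6.79 ± 1.02, adjusted p = 0.000692), Mup12 averaged 2.25 ± 1.6 CPM in ORX_IH livers and 272 ± 111 CPM in Sham_Nx livers (log2 fold change -6.90 ± 0.70, adjusted p = 2.94e-05) and Mup15 averaged 10.03 ± 7.12 CPM in ORX_IH livers and 1132 ± 484 CPM in Sham_Nx livers (log2 fold change -6.81 ± 1.01, adjusted p = 0.000692). Mup22 had a smaller fold change, at 3493 ± 1209 CPM in ORX_IH livers and 14809 ± 1174 CPM in Sham_Nx livers (log2 fold change -2.08 ± 0.39, adjusted p = 0.00297). Reads of near-identical copies, as in the Mup, Cyp4a12, Cyp2b, Sult3a and Serpina1 families, may have been divided between them in counting, so that the level of a single copy is uncertain.

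**Figure D2:**
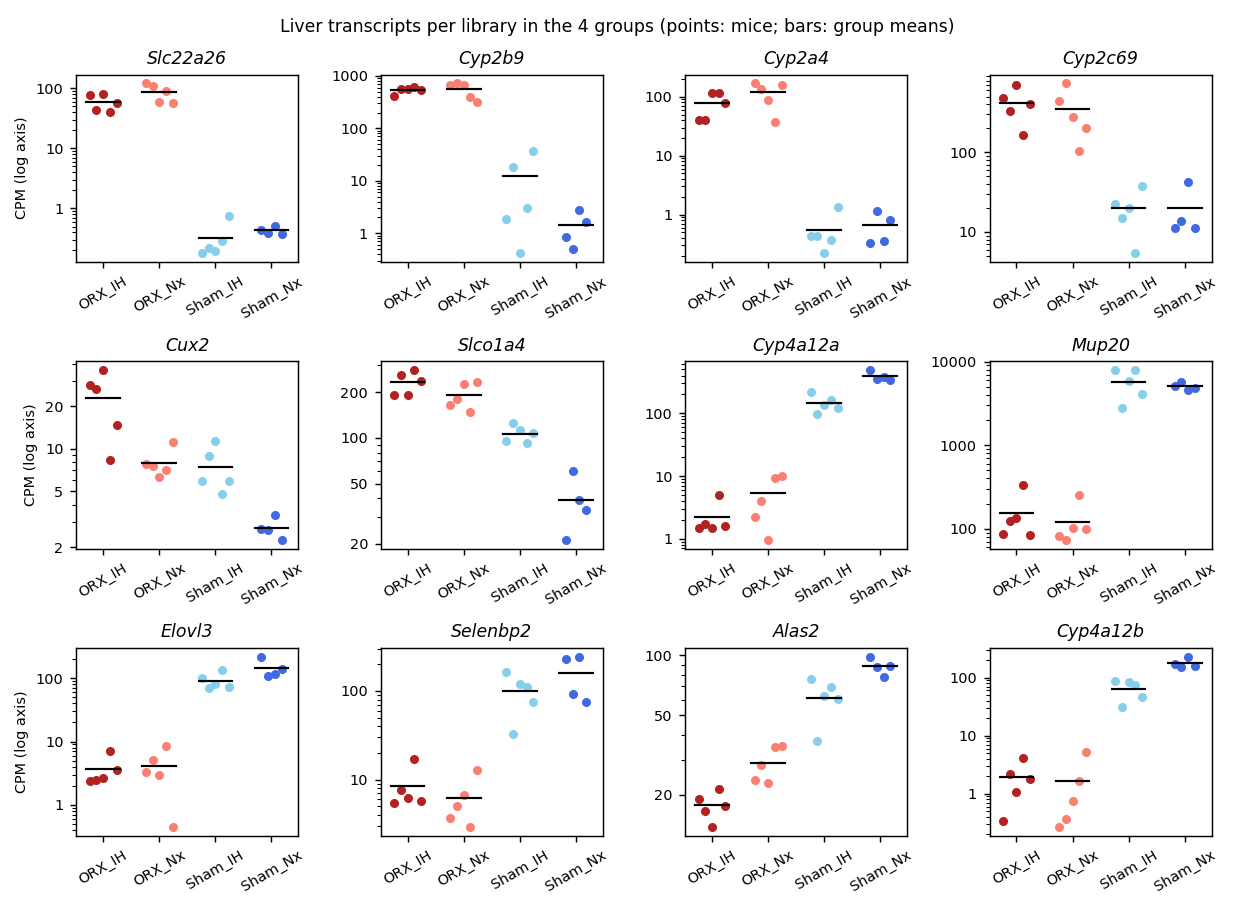
CPM (log axis) of 12 transcripts in each library of the 4 groups, 1 point a mouse, with bars at the group means. The first 6 panels show genes that were higher in ORX_IH than in Sham_Nx, from Slc22a26 to Slco1a4, and the other 6 show genes that were lower. In Cux2, Slco1a4, Alas2, Cyp4a12a, Elovl3 and Cyp2c69 the mean of each single treatment lies between those of ORX_IH and Sham_Nx. In Elovl3 and Cyp2c69 this holds by a small margin. The other panels do not show this order.

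Regulators of the sex pattern changed in a few members of their list. Of 27 tested genes of growth hormone, androgen and oestrogen signalling, 4 were higher (Cux2, Prlr, Igfbp2 and Foxa2) and 2 were lower (Bcl6 and Srd5a1). The list's median was 0.15, and over all tested genes 3.49% were higher and 5.08% lower. Cux2, the female-pattern repressor, had 27.97, 26.4, 36.0, 8.37 and 14.6 CPM in ORX_IH mice 1 to 5, against 2.72, 2.66, 3.41 and 2.25 CPM in Sham_Nx mice 2 to 5 (log2 fold change 3.04 ± 0.38, adjusted p = 0.000115). ORX_IH mouse 4 had the lowest Cux2 of its group and still lay above each Sham_Nx mouse. Bcl6, the male-pattern repressor, had a log2 fold change of -2.23 (adjusted p = 0.034). Foxa2, a factor that opens hepatocyte chromatin, had a log2 fold change of 0.81 (adjusted p = 0.0383). Srd5a1, which converts testosterone to dihydrotestosterone, averaged 58.8 ± 26.1 CPM in ORX_IH livers and 104 ± 10.5 CPM in Sham_Nx livers (log2 fold change -0.82 ± 0.23, adjusted p = 0.0317), and Igfbp2, a binding protein of insulin-like growth factors, averaged 585 ± 142.7 CPM in ORX_IH livers and 317 ± 111 CPM in Sham_Nx livers (log2 fold change 0.88 ± 0.24, adjusted p = 0.0299). The calls of these genes other than Cux2 and Prlr were lost when single libraries were left out, 7 of the libraries for Srd5a1 and 5 for Igfbp2. No member was lower without ORX_IH 1, 2, 3 or 5 or Sham_Nx 5, so that Bcl6 was not called in any of these settings, and Foxa2 was not called without ORX_IH 3 or Sham_Nx 2, 3 or 5. The list held 1 higher and 0 lower members without the 4 muscle-rich libraries.

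The flavin-containing monooxygenases Fmo1, Fmo2 and Fmo4 rose, and Fmo5 did not pass. Fmo2 had 129, 127, 132, 60.01 and 113.8 CPM in ORX_IH mice 1 to 5, against 20.7, 15.7, 33.7 and 22.5 CPM in Sham_Nx mice 2 to 5 (log2 fold change 2.28 ± 0.35, adjusted p = 0.00074). ORX_IH mouse 4 had the lowest Fmo2 of its group, above each Sham_Nx mouse. Fmo1 averaged 348 ± 40.5 CPM in ORX_IH livers and 228 ± 29.9 CPM in Sham_Nx livers (log2 fold change 0.61 ± 0.15, adjusted p = 0.0142), and Fmo4 averaged 7.98 ± 0.787 CPM in ORX_IH livers and 5.01 ± 0.701 CPM in Sham_Nx livers (log2 fold change 0.67 ± 0.15, adjusted p = 0.0072). Fmo1 lost its call without Sham_Nx 2 and without the 3 pancreas-rich libraries, and Fmo1, Fmo2 and Fmo4 all lost theirs without the 4 muscle-rich libraries. Fmo5 averaged 541 ± 148 CPM in ORX_IH livers and 537 ± 71.0 CPM in Sham_Nx livers (log2 fold change 0.01 ± 0.15, adjusted p = 0.974). Against the single treatments, the log2 fold change of Fmo2 was 0.98 ± 0.31 against ORX_Nx (adjusted p = 0.127) and 1.58 ± 0.31 against Sham_IH (adjusted p = 0.0109). The interaction of the 2 treatments on Fmo2 was 0.29 on the log2 scale (adjusted p = 0.94), which is the difference between the hypoxia effect after orchiectomy and the hypoxia effect after sham surgery. Fmo6 was below the filter on low counts and Fmo9 was at 0 in each library.

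Some genes of cholesterol and fatty acid synthesis rose, and some of fatty acid oxidation fell. Over all tested genes 3.49% rose and 5.08% fell. In cholesterol synthesis 6 of 25 tested members rose and 0 fell, with a median of 0.84 and 24 members above 0. The summed level of this list overlapped narrowly, at 1961 to 3637 CPM in ORX_IH libraries and 1647 to 1987 CPM in Sham_Nx libraries. Sqle, the squalene epoxidase, had 57.9, 40.4, 95.0, 99.1 and 31.4 CPM in ORX_IH mice 1 to 5, against 17.8, 10.2, 29.1 and 11.4 CPM in Sham_Nx mice 2 to 5 (log2 fold change 1.92 ± 0.40, adjusted p = 0.00672). The lowest ORX_IH library lay only just above the highest Sham_Nx library. Idi1, an isomerase of the isoprenoid route, had a log2 fold change of 1.38 (adjusted p = 0.0242), Lss, the lanosterol synthase, one of 1.02 (adjusted p = 0.0328), Msmo1, a sterol demethylase, one of 1.49 (adjusted p = 0.0477) and Srebf2, which switches the pathway on, one of 0.58 (adjusted p = 0.0321). In fatty acid and triglyceride synthesis 5 of 28 rose and 2 fell, with a median of 0.16 and 17 members above 0. Its summed level overlapped between the groups, at 4406 to 11861 CPM in ORX_IH libraries and 5825 to 12516 CPM in Sham_Nx libraries. The median sum was lower in ORX_IH, at 5501 CPM against 7910 CPM in Sham_Nx. Srebf1, the regulator of lipogenesis, had 61.2, 131, 133.9, 282 and 85.9 CPM in ORX_IH mice 1 to 5, against 33.0, 33.2, 38.0 and 36.2 CPM in Sham_Nx mice 2 to 5 (log2 fold change 1.98 ± 0.47, adjusted p = 0.0156). Fasn, fatty acid synthase, had a log2 fold change of 1.47 (adjusted p = 0.0407), Elovl6, an elongase, one of 0.88 (adjusted p = 0.0433) and Acaca, acetyl-CoA carboxylase, one of 0.74 (adjusted p = 0.0404). Plin2, which coats lipid droplets, averaged 416 ± 122.2 CPM in ORX_IH livers and 805 ± 249 CPM in Sham_Nx livers (log2 fold change -0.95 ± 0.21, adjusted p = 0.00755) and fell, as did Mogat1, an acylglycerol transferase, by 1.38 on the log2 scale.

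Of 31 tested genes of fatty acid oxidation and ketogenesis, 8 fell and 1 rose, against 5.08% and 3.49% of all genes. The list's median was -0.29, with 27 members below 0. Cpt1a, which admits fatty acids to mitochondria, had 448, 456, 412, 498 and 517 CPM in ORX_IH mice 1 to 5, against 732, 634, 679 and 655 CPM in Sham_Nx mice 2 to 5 (log2 fold change -0.53 ± 0.10, adjusted p = 0.00184). Creb3l3, a fasting transcription factor, averaged 251 ± 17.7 CPM in ORX_IH livers and 345 ± 18.8 CPM in Sham_Nx livers (log2 fold change -0.46 ± 0.08, adjusted p = 0.00133), and Cpt2, the partner of Cpt1a, averaged 176 ± 27.1 CPM in ORX_IH livers and 257 ± 19.3 CPM in Sham_Nx livers (log2 fold change -0.55 ± 0.11, adjusted p = 0.00337). Ppara, the nuclear receptor of fasting, had a log2 fold change of -0.68 (adjusted p = 0.04) and its hormone target Fgf21 one of -1.64 (adjusted p = 0.0354). The member that rose was Ppargc1a, a coactivator of mitochondrial genes, at 0.66 (adjusted p = 0.0203). Pck1, the gluconeogenic enzyme, averaged 596 ± 316 CPM in ORX_IH livers and 1799.5 ± 372 CPM in Sham_Nx livers (log2 fold change -1.59 ± 0.39, adjusted p = 0.0188) and Gys2, liver glycogen synthase, averaged 96.2 ± 14.9 CPM in ORX_IH livers and 129.9 ± 7.31 CPM in Sham_Nx livers (log2 fold change -0.43 ± 0.11, adjusted p = 0.0154). They were the 2 members of 22 in glucose metabolism that fell, beside Ppargc1a that rose. Without the 4 muscle-rich libraries no member of these 4 lists was called, and without the 3 pancreas-rich libraries 0 cholesterol genes, 2 higher and 1 lower lipogenic genes, 3 lower oxidation genes and 0 glucose genes were called. Leaving out single libraries gave 2 to 8 higher cholesterol genes, 1 to 5 higher lipogenic genes and 3 to 13 lower oxidation genes, with the fewest lipogenic genes without Sham_Nx 2 and the fewest oxidation genes without ORX_IH 2.

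Bile acid genes moved in both directions, 3 of 25 higher and 6 lower, against 3.49% and 5.08% of all genes. The list's median was -0.07. Slco1a4, an uptake transporter, had 191, 258, 192, 279.7 and 237 CPM in ORX_IH mice 1 to 5, against 21.2, 60.8, 39.1 and 33.6 CPM in Sham_Nx mice 2 to 5 (log2 fold change 2.58 ± 0.24, adjusted p = 8.27e-06). Every ORX_IH mouse was at least 3 times the highest Sham_Nx mouse. Cyp7b1, an oxysterol hydroxylase of the alternative route, averaged 71.0 ± 31.9 CPM in ORX_IH livers and 245 ± 67.8 CPM in Sham_Nx livers (log2 fold change -1.79 ± 0.29, adjusted p = 0.000981), and Cyp8b1, which makes cholic acid, fell by 1.45 on the log2 scale (adjusted p = 0.00552). Cyp2c70, which makes muricholic acids, averaged 337 ± 65.6 CPM in ORX_IH livers and 177 ± 27.5 CPM in Sham_Nx livers (log2 fold change 0.93 ± 0.17, adjusted p = 0.00244). Abcb4, the phospholipid export pump, averaged 339 ± 33.8 CPM in ORX_IH livers and 477 ± 20.5 CPM in Sham_Nx livers (log2 fold change -0.49 ± 0.08, adjusted p = 0.0011). In xenobiotic metabolism 6 of 36 members rose and 6 fell. Gstt3, a glutathione transferase, averaged 88.3 ± 17.3 CPM in ORX_IH livers and 32.1 ± 9.06 CPM in Sham_Nx livers (log2 fold change 1.46 ± 0.25, adjusted p = 0.00141). The glucuronosyltransferases Ugt2b5 (-0.67) and Ugt1a6a (-0.58) and the aldehyde oxidase Aox1 (-0.85) had negative log2 fold changes with adjusted p of 0.000399, 0.000504 and 0.000595. Cyp2b10, the usual target of the receptor CAR, rose by 1.98 (adjusted p = 0.0475). When any 1 library was left out, 3 to 4 bile acid genes were higher and 3 to 8 lower, with the fewest lower without ORX_IH 2, and 3 to 7 xenobiotic genes were called in each direction, with the fewest without Sham_Nx 5. Without the 4 muscle-rich libraries 1 bile acid gene was higher, 0 were lower and 0 xenobiotic genes were called.

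Secreted plasma proteins included members that were higher and members that were lower. In the acute phase list 9 of 36 rose and 0 fell, against 3.49% and 5.08% of all genes. The list's median was 0.50, with 32 members above 0. Serpina3m, a serpin, averaged 415 ± 55.1 CPM in ORX_IH livers and 231 ± 38.3 CPM in Sham_Nx livers (log2 fold change 0.84 ± 0.12, adjusted p = 0.000193). Apcs, serum amyloid P, averaged 135.3 ± 22.4 CPM in ORX_IH livers and 56.4 ± 11.3 CPM in Sham_Nx livers (log2 fold change 1.26 ± 0.24, adjusted p = 0.00313). Itih4 averaged 2240.4 ± 338 CPM in ORX_IH livers and 1334 ± 135.8 CPM in Sham_Nx livers (log2 fold change 0.75 ± 0.16, adjusted p = 0.005). Hamp2, the second hepcidin gene of mice, had 59.9, 80.7, 21.2, 90.8 and 83.3 CPM in ORX_IH mice 1 to 5, against 4.28, 6.39, 3.54 and 10.3 CPM in Sham_Nx mice 2 to 5 (log2 fold change 3.45 ± 0.47, adjusted p = 0.00031). Its ORX_IH values spread over 4-fold and none reached down to the Sham_Nx values. In complement and coagulation 5 of 39 rose and 3 fell. C3, the hub of complement, averaged 12898 ± 1124 CPM in ORX_IH livers and 8677 ± 523 CPM in Sham_Nx livers (log2 fold change 0.57 ± 0.09, adjusted p = 0.000879). C6, of the terminal pore, had 39.7, 43.2, 24.6, 70.5 and 36.7 CPM in ORX_IH mice 1 to 5, against 283, 264, 274 and 266 CPM in Sham_Nx mice 2 to 5 (log2 fold change -2.66 ± 0.38, adjusted p = 0.000431), and C8a and C9 of the same pore had log2 fold changes of -1.04 (adjusted p = 0.0421) and -1.39 (adjusted p = 0.0131). C6 and C8a are also in the male-biased list. Vldlr, a lipoprotein receptor, averaged 19.1 ± 5.06 CPM in ORX_IH livers and 4.81 ± 0.857 CPM in Sham_Nx livers (log2 fold change 1.99 ± 0.24, adjusted p = 8.15e-05), and Apom, a carrier of sphingosine phosphate, averaged 180.4 ± 30.1 CPM in ORX_IH livers and 121 ± 3.78 CPM in Sham_Nx livers (log2 fold change 0.57 ± 0.11, adjusted p = 0.00331). In iron and haem handling Hamp2 rose, and the members that fell included Ireb2 (-0.27), a sensor of cell iron, and Ftl1 (-0.45), the ferritin light chain, both values log2 fold changes. Leaving out any 1 library gave 5 to 12 higher acute phase genes, with the fewest without ORX_IH 1 or Sham_Nx 2, 3 or 5. Without the 4 muscle-rich libraries 0 members of the acute phase, complement and iron lists were called and 2 of the apolipoprotein list were.

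Targets of hypoxia-inducible factors held 1 call, while lists of oxidative stress and the unfolded protein response held several lower members. Of 36 tested targets of hypoxia-inducible factors, 0 rose and 1 fell (2.78%), with a median of 0.08. The member that fell was Angptl4, an inhibitor of lipoprotein lipase, at 18.9 ± 8.84 CPM in ORX_IH livers and 51.0 ± 13.1 CPM in Sham_Nx livers (log2 fold change -1.43 ± 0.36, adjusted p = 0.0207), and its call was lost when any 1 of 4 libraries was left out. Ldha, lactate dehydrogenase, averaged 797 ± 137 CPM in ORX_IH livers and 1040.2 ± 70.9 CPM in Sham_Nx livers (log2 fold change -0.38 ± 0.13, adjusted p = 0.0686), and Bhlhe40, a repressor induced by low oxygen, averaged 89.2 ± 42.1 CPM in ORX_IH livers and 44.4 ± 7.34 CPM in Sham_Nx livers (log2 fold change 1.01 ± 0.32, adjusted p = 0.0644). Neither passed. In the oxidative stress list 8 of 36 fell and 0 rose, where 5.08% of all tested genes were lower, with a median of -0.08. Ephx1, microsomal epoxide hydrolase, had 185, 195, 241, 286 and 274 CPM in ORX_IH mice 1 to 5, against 420.1, 449.7, 399 and 499 CPM in Sham_Nx mice 2 to 5 (log2 fold change -0.90 ± 0.12, adjusted p = 0.000179). Nfe2l2, which encodes the factor NRF2, averaged 59.95 ± 4.26 CPM in ORX_IH livers and 72.2 ± 3.31 CPM in Sham_Nx livers (log2 fold change -0.27 ± 0.06, adjusted p = 0.0054), and Gpx4, which removes lipid peroxides, averaged 147 ± 13.5 CPM in ORX_IH livers and 186 ± 10.2 CPM in Sham_Nx livers (log2 fold change -0.34 ± 0.07, adjusted p = 0.00644). These differences other than Ephx1 were under 1.4-fold, and 1 member of the list was called without the 4 muscle-rich libraries and likewise without the 3 pancreas-rich libraries. When any 1 library was left out 4 to 8 were lower, with the fewest without ORX_IH 1, ORX_IH 2 or Sham_Nx 5.

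In the unfolded protein response 5 of 25 members fell and 0 rose, against the same 5.08% of all genes, with a median of -0.48. Herpud1, of endoplasmic reticulum degradation, averaged 299.6 ± 100.1 CPM in ORX_IH livers and 685 ± 261 CPM in Sham_Nx livers (log2 fold change -1.19 ± 0.34, adjusted p = 0.0356). Sel1l averaged 202 ± 42.4 CPM in ORX_IH livers and 330.0 ± 70.0 CPM in Sham_Nx livers (log2 fold change -0.71 ± 0.17, adjusted p = 0.012). The list's count was 0 without Sham_Nx 2 alone, without the muscle-rich libraries and without the pancreas-rich libraries, and 9 without ORX_IH 1 and ORX_IH 2. Mitochondria-encoded respiratory genes had 1 lower member of 13, mt-Nd2 at 6001 ± 519 CPM in ORX_IH livers and 8415 ± 657 CPM in Sham_Nx livers (log2 fold change -0.49 ± 0.10, adjusted p = 0.00412), while 0 of 34 nuclear-encoded members passed. In the cell cycle list Ccnd1 (cyclin D1) rose by 1.12 while Cdc20 (at 0.102 ± 0.0508 CPM in ORX_IH livers and 0.501 ± 0.0972 CPM in Sham_Nx livers) and Aurka (log2 fold change -0.71), both of mitosis, fell. Of 26 tested cell cycle genes 1 was higher and 2 were lower, against 3.49% and 5.08% of all genes. These calls were lost without single libraries, 14 of them for Ccnd1. In the urea cycle and amino acid list Hal (0.71) and Hpd (0.43) rose and Tdo2 (-0.73), which breaks down tryptophan, fell among 34 members. Hspa4 fell by 0.24 on the log2 scale, the 1 call among 18 heat shock genes. Over all tested genes 8.57% were called, and neither list stood out by its count. Hpd lost its call without any 1 of 10 libraries and Hspa4 without any 1 of 6. None of 21 clock genes and none of 30 interferon genes was called by edgeR. The smallest adjusted p among them were 0.0644 for Bhlhe40 and 0.0948 for Ifi27l2b.

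**Figure D3:**
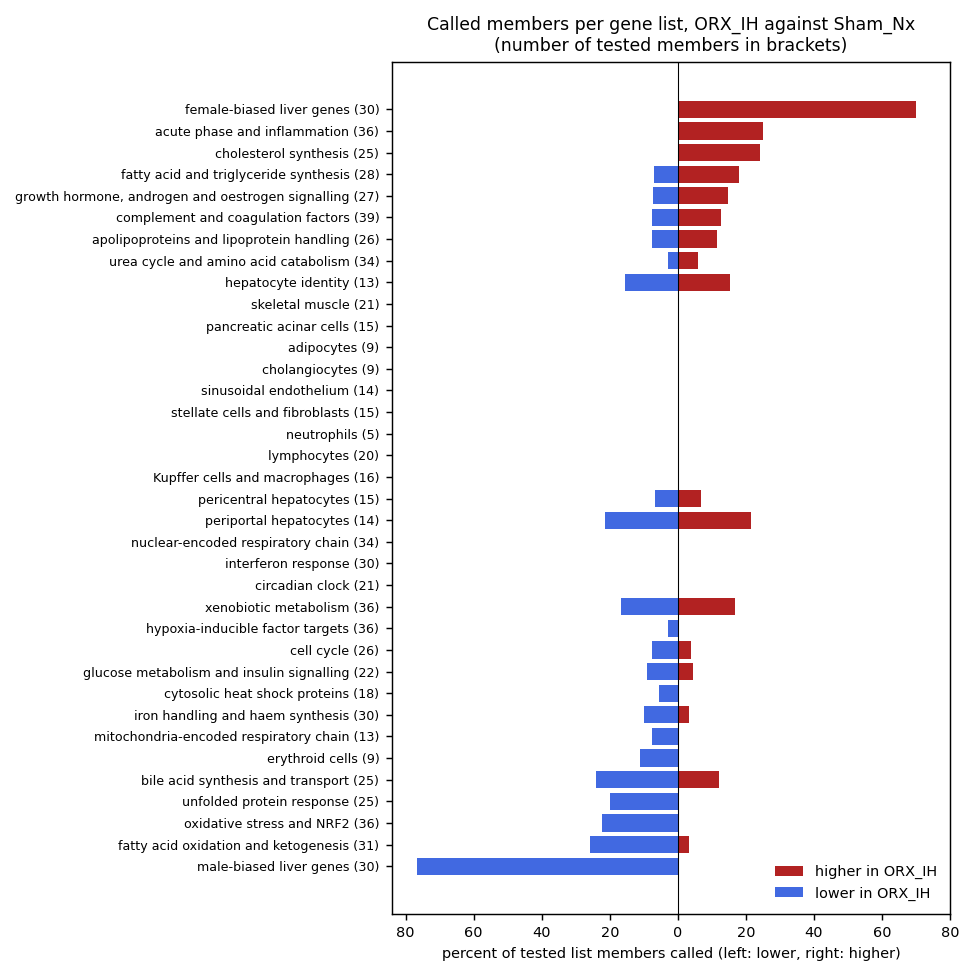
Percent of tested members of each gene list shown that were called lower (blue, left) or higher (red, right) in ORX_IH against Sham_Nx. The number of tested members is in brackets. The list of flavin-containing monooxygenases is not shown. Of the lists shown, female-biased genes (21 of 30 higher) and male-biased genes (23 of 30 lower) have the longest bars. Lists of other cell types have 0 called members apart from 1 erythroid gene.

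Periportal markers changed in both directions, and lists of other cell types held 0 calls apart from 1 erythroid gene. Among periportal markers 3 of 14 rose (Hal, Ctsc and Aldh1b1) and 3 fell (Pck1, Hsd17b13 and Cyp2f2), where 8.57% of all tested genes were called. Their summed level, most of it Alb, did not overlap between the groups, at 80679.6 to 101317 CPM in ORX_IH libraries and 64169 to 77265 CPM in Sham_Nx libraries. Leaving out any 1 library gave 2 to 6 higher and 0 to 3 lower periportal markers, with 0 lower without Sham_Nx 5, and 0 were called without the 4 muscle-rich libraries. Among pericentral markers Lect2 rose and Aldh3a2 fell of 15. The lists of Kupffer cells (16 tested), lymphocytes (20), neutrophils (5), stellate cells (15), sinusoidal endothelium (14), cholangiocytes (9), adipocytes (9), pancreatic acinar cells (15) and skeletal muscle (21) held 0 calls. Their summed levels still differed between libraries. Kupffer cell genes summed to 322 to 513 CPM in ORX_IH libraries and 273 to 439 CPM in Sham_Nx libraries, stellate cell genes to 314 to 444 CPM in ORX_IH libraries and 260.1 to 308 CPM in Sham_Nx libraries and lymphocyte genes to 22.0 to 83.2 CPM in ORX_IH libraries and 15.8 to 26.5 CPM in Sham_Nx libraries. The stellate sums did not overlap between the groups. The top lymphocyte sum was that of ORX_IH 1, the library highest in muscle and pancreatic genes of its group. All 15 stellate genes and 18 of 20 lymphocyte genes had fold changes above 0, and skeletal muscle genes had a median of 2.54 with 20 of 21 above 0. The part of stellate cells and lymphocytes in the results above was not tested. In the erythroid list Alas2, the haem enzyme of red cells, was the 1 call of 9. It had 19.1, 16.7, 13.8, 21.5 and 17.6 CPM in ORX_IH mice 1 to 5, against 98.4, 87.5, 78.1 and 88.3 CPM in Sham_Nx mice 2 to 5 (log2 fold change -2.31 ± 0.18, adjusted p = 1.73e-06). The summed erythroid level overlapped between the groups, at 286 to 799 CPM in ORX_IH libraries and 463 to 674 CPM in Sham_Nx libraries.

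**Figure D4:**
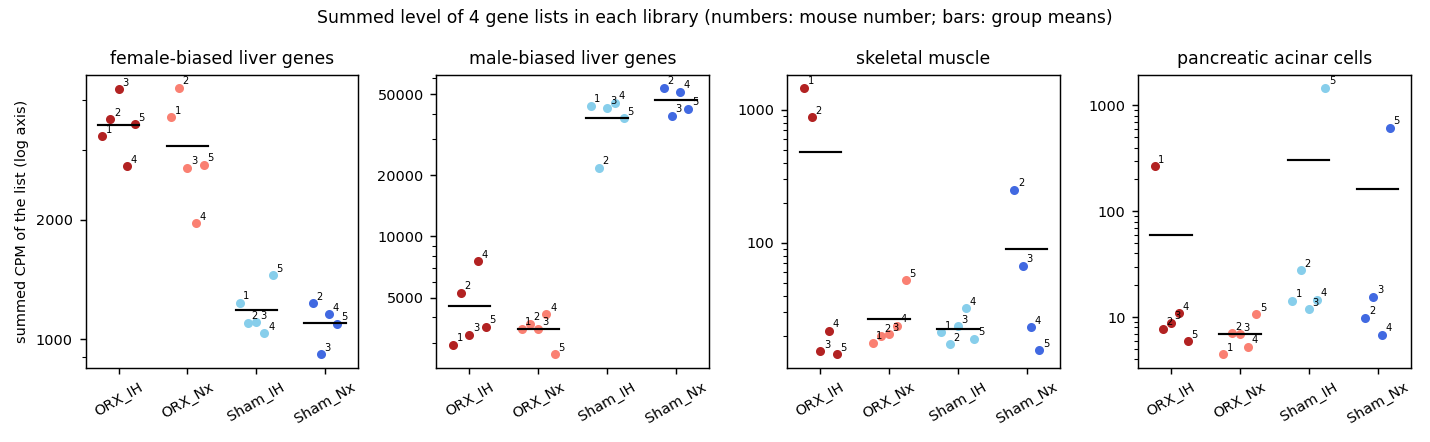
Summed CPM (log axis) of 4 gene lists in each library of the 4 groups, 1 point a mouse with its number, and bars at the group means. The female-biased sum is higher and the male-biased sum lower in ORX_IH than in Sham_Nx, while the muscle sum is raised in ORX_IH 1 and 2 and Sham_Nx 2 and 3, and the pancreatic sum in ORX_IH 1, Sham_IH 5 and Sham_Nx 5.

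The same ORX_IH libraries were set against each single treatment, so these comparisons share libraries with the one above and are given side by side only. Against Sham_IH, which isolates the loss of the testes under hypoxia, 401 genes (2.48%) were called, 160 higher (0.99%) and 241 lower (1.49%), with 192 at least 2-fold apart (1.19%). In that comparison 21 of 30 female-biased genes were higher and 23 of 30 male-biased genes were lower. Against ORX_Nx, which isolates hypoxia after orchiectomy, 14 genes (0.0866%) were called, 5 higher (0.0309%) and 9 lower (0.0557%), and 0 of the female-biased or male-biased genes were among them. The count of 14 depended strongly on the setting, as DESeq2 called 712 and limma-trend on the deposited log2 values called 0, and it ran from 0 to 198 when any 1 library was left out. The count of 401 fell by more than 1.5 times without ORX_IH 1 or 2 or without Sham_IH 1, 3 or 4, to as few as 208 without ORX_IH 1, and it was 614 without ORX_IH 4 and likewise without ORX_Nx 5. Cyp2b9 had a log2 fold change of -0.04 ± 0.72 against ORX_Nx (adjusted p = 0.987) and 5.44 ± 0.88 against Sham_IH (adjusted p = 0.0026). Elovl3 had one of -0.16 ± 0.48 against ORX_Nx (adjusted p = 0.909) and -4.63 ± 0.52 against Sham_IH (adjusted p = 9.59e-05). In Sqle the values were 0.62 ± 0.35 against ORX_Nx (adjusted p = 0.389) and -0.24 ± 0.35 against Sham_IH (adjusted p = 0.784), and in Plin2 they were -0.36 ± 0.20 against ORX_Nx (adjusted p = 0.371) and 0.15 ± 0.20 against Sham_IH (adjusted p = 0.76).

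The higher genes against ORX_Nx that met the naming rule were Adgrl2, Pfkm, Tiam2, Rbfox2 and Ptpn3, and the lower ones were Il1rn, Ifi213, Hexa, Zfpm1 and Tmem184b. Il1rn, the interleukin-1 receptor antagonist, averaged 1.84 ± 0.633 CPM in ORX_IH, 5.9 ± 3.36 in ORX_Nx, 1.02 ± 0.179 in Sham_IH and 1.53 ± 0.303 in Sham_Nx livers. Pfkm, a phosphofructokinase, averaged 24.4 ± 5.27 CPM in ORX_IH, 16.3 ± 1.56 in ORX_Nx, 20.4 ± 0.78 in Sham_IH and 20.5 ± 1.04 in Sham_Nx livers. The Il1rn level was highest in ORX_Nx 4 and 5, at 6.78 and 11.3 CPM, against 2.85 to 4.7 CPM in ORX_Nx 1 to 3. These libraries also stood apart in Kupffer cell genes, which summed to 1502 CPM in ORX_Nx 4 and 1135 CPM in ORX_Nx 5, against 367 to 659 CPM in ORX_Nx 1 to 3, and in neutrophil genes, at 56.4 and 13.4 CPM, against 3.34 to 4.67 CPM. In Il1rn, ORX_Nx 1 to 3 lay above each library of the other groups, which reached at most 2.74 CPM. For the ORX_IH libraries the naming rule required this. The part of Kupffer cells and neutrophils in the Il1rn difference was not tested. Between ORX_IH and Sham_Nx the gene was not called (log2 fold change 0.27 ± 0.33, adjusted p = 0.659). Rbfox2, a splicing factor, rose against both ORX_Nx and Sham_Nx, with averages of 41.9 ± 2.82 CPM in ORX_IH, 33.0 ± 1.63 in ORX_Nx, 38.4 ± 2.33 in Sham_IH and 31.1 ± 3.17 in Sham_Nx livers. Zfpm1 and Tmem184b fell against both, by 0.41 and 0.30 on the log2 scale against Sham_Nx.

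For no gene did ORX_IH differ from each of the other 3 groups at an adjusted p under 0.05 in edgeR, where 234 genes (1.45%) did at an unadjusted p under 0.05 and DESeq2 called 4. The test takes the largest of the 3 p-values and requires 1 direction. The reported genes with the smallest such p were Sall1, Cux2, Alas2, Ptgds, Mettl7b, Mcm10 and Jmy. Sall1, a zinc-finger factor, averaged 74.9 ± 8.42 CPM in ORX_IH, 54.8 ± 5.15 in ORX_Nx, 47.9 ± 6.29 in Sham_IH and 45.0 ± 3.55 in Sham_Nx livers (unadjusted p = 0.000103 in edgeR). Cux2 averaged 22.7 ± 11.1 CPM in ORX_IH, 7.96 ± 1.84 in ORX_Nx, 7.37 ± 2.7 in Sham_IH and 2.76 ± 0.481 in Sham_Nx livers (unadjusted p = 0.000208 in edgeR). Alas2 averaged 17.7 ± 2.87 CPM in ORX_IH, 28.9 ± 5.75 in ORX_Nx, 61.0 ± 14.6 in Sham_IH and 88.1 ± 8.31 in Sham_Nx livers (unadjusted p = 0.000591 in edgeR). Since the test requires 1 direction, ORX_IH was the extreme of the 4 groups in these genes by choice. Sham_Nx lay at the other end in all 3. Ptgds, a prostaglandin D synthase, averaged 3.54 ± 0.673 CPM in ORX_IH, 1.08 ± 0.901 in ORX_Nx, 0.917 ± 0.374 in Sham_IH and 0.368 ± 0.121 in Sham_Nx livers, and Mcm10, a replication factor, averaged 27.8 ± 6.23 CPM in ORX_IH, 42.6 ± 3.54 in ORX_Nx, 51.5 ± 13.6 in Sham_IH and 64.6 ± 11.3 in Sham_Nx livers. Both had single-treatment means between those of ORX_IH and Sham_Nx, as had Mettl7b, a lipid droplet methyltransferase-like protein, at 432 ± 49.99 CPM in ORX_IH, 542 ± 33.4 in ORX_Nx, 531 ± 35.2 in Sham_IH and 590.1 ± 21.9 in Sham_Nx livers, and Jmy, an actin nucleator, at 19.3 ± 0.856 CPM in ORX_IH, 24.3 ± 2.42 in ORX_Nx, 24.1 ± 2.14 in Sham_IH and 28.1 ± 4.31 in Sham_Nx livers.

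The interaction, which asks whether hypoxia acted differently after orchiectomy than after sham surgery, was called for 0 of 16164 genes by edgeR, with 988 (6.11%) at an unadjusted p under 0.05, and for 63 by DESeq2. Among genes called in ORX_IH against Sham_Nx, the smallest interaction p belonged to Kng2, Scpep1, Gpc1, Nceh1 and Slc6a9, each with an adjusted p of 0.422. Gpc1, a heparan sulphate proteoglycan, averaged 8.1 ± 1.84 CPM in ORX_IH, 5.41 ± 1.6 in ORX_Nx, 12.9 ± 1.96 in Sham_IH and 19.8 ± 1.7 in Sham_Nx livers. Kng2, a kininogen, averaged 217 ± 10.7 CPM in ORX_IH, 254 ± 20.5 in ORX_Nx, 199 ± 21.9 in Sham_IH and 159 ± 12.99 in Sham_Nx livers. Scpep1, a carboxypeptidase, averaged 39.5 ± 2.08 CPM in ORX_IH, 50.2 ± 1.5 in ORX_Nx, 33.6 ± 2.22 in Sham_IH and 32.0 ± 1.97 in Sham_Nx livers. In Gpc1 the lowest mean was that of ORX_Nx, and in Kng2 and Scpep1 the highest was that of ORX_Nx. Nceh1, a cholesteryl ester hydrolase, averaged 25.3 ± 3.04 CPM in ORX_IH, 29.8 ± 2.77 in ORX_Nx, 21.7 ± 1.63 in Sham_IH and 39.5 ± 7.19 in Sham_Nx livers, with its lowest mean in Sham_IH. Slc6a9, a glycine transporter, averaged 23.8 ± 4.23 CPM in ORX_IH, 20.8 ± 1.4 in ORX_Nx, 30.7 ± 3.12 in Sham_IH and 40.5 ± 2.48 in Sham_Nx livers.

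Within ORX_IH, mouse 4 stood nearest to Sham_Nx for many of the sex-biased transcripts. Its male-biased genes summed to 7546 CPM, the highest of 2943 to 7546 CPM in ORX_IH libraries and 39119.5 to 53717 CPM in Sham_Nx libraries. Its female-biased genes summed to the lowest value of its group, in sums of 2725 to 4259 CPM in ORX_IH libraries and 916 to 1231 CPM in Sham_Nx libraries. No ORX_IH sum overlapped with a Sham_Nx sum in either list. Of 107 called genes named by the rule, 26 did not lose their call in any of the 35 other settings tried. Some settings, such as DESeq2 and the filter on mean CPM, gave no value for some named genes. Such genes were not counted as lost there. Among the 26 were Sult3a1, Slc22a26, Cyp2a4, Cyp4a12a, Elovl3, Selenbp2, Mup20, Cux2, Alas2, Slco1a4, Vldlr, Ephx1, Apom and Rbfox2. Without the 4 muscle-rich libraries 80 of the 107 lost their call, 38 of them in that setting alone, and 29 lost it without some single library.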

How the data were processed

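Liver poly(A) RNA of 20 labelled mice was made into strand-specific libraries from 250 ng of total RNA, per the labels' protocols. 19 libraries were analysed and 9 compared. Reads were processed with bcl2fastq 2.20, fastp 0.23.2, FastQC 0.11.9, MultiQC 1.12 and kallisto 0.46.1 on GRCm39, per the submitters' processing notes. The deposited table holds estimated counts for 36106 genes, of which 11341 were at 0 in each library, and 27.5% of its values were not whole (tolerance 1e-06). The authors' second deposited table holds log2 normalised expression with F scores, p-values and q-values. No source used here says how it was made. Its log2 values differed from log2 RPKM by a median of 0.0760 over 12322 genes. In it, 1450 of 35982 genes had a q-value under 0.05.

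Counts were rounded, genes filtered with edgeR's filterByExpr (minimum count 10, 16164 kept) and libraries scaled by TMM. The quasi-likelihood test of edgeR 4.0.16 (R 4.3.3) was fitted to all 19 libraries with group as the only term, with Benjamini-Hochberg adjustment over all tested genes and a threshold of 0.05. SE is the log2 fold change divided by the square root of F, and SD values are over 5 ORX_IH and 4 Sham_Nx mice. limma 3.58.1, DESeq2 1.42.0, other scalings, filters, a split at library number 16, a replicate block and left-out libraries were alternatives. The labels give library numbers only and name no batch. Tests were checked on simulated data. Figures and summaries used Python 3.11.15. The shallowest library gives 3 counts at 0.102 CPM. Counting error alone is covered by such limits. 60 genes that share a symbol were kept apart by identifier. Libraries differed within groups by more than sampling noise (chi-square per degree of freedom 32.5 to 154 in ORX_IH and 44.5 to 91.8 in Sham_Nx).

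Genes were named by rule: the 10 largest rises and falls among called genes without overlap between groups, a mean of at least 1 CPM and at most 2 of a name family, the 4 smallest adjusted p in each list, the 8 smallest p against all other groups, the 5 smallest interaction p, the measured Fmo genes, the 10 most abundant genes in Sham_Nx, and the 5 largest rises and falls against each single treatment. Other list members are named where they were called or show the list's range. The comparison, the lists and the rule were chosen with earlier results of these data known. Some genes that the rule would name are not reported here. Promoters are RefSeq sequences of build GRCm38.p6, and no coordinates of the count table's own build are given.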

Additional observations from a re-analysis of the deposited data

Results flagged for a closer look

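Values are given here where 1 sample lay far from the rest of its group, by Dixon's ratio of the gap to the range. Of 146 group values looked at, 15 did so, and chance alone gives about 1 in 20. ORX_IH mouse 4 accounted for 6 of them. It had 23.1 CPM of Sult3a1 and 60.01 CPM of Fmo2, the lowest of its group, and 4.96 CPM of Cyp4a12a, the highest. Its summed CPM was 8520 for bile acid genes and 6943 for glucose genes, both the highest of the ORX_IH mice, and 3902 for cytosolic heat shock genes, the lowest.

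ORX_IH mouse 1 had 409 CPM of Cyp2b9, below the other ORX_IH mice, and the highest sums of its group for lymphocyte genes at 83.2 CPM and for pancreatic acinar genes at 267 CPM. Sham_Nx mouse 4 had 42.5 CPM of Cyp2c69, above the other Sham_Nx mice, and was below them with 139.5 CPM of Kng2 and a lymphocyte sum of 15.8 CPM. Sham_Nx mouse 3 had 424 CPM of Mup15, below its group. Sham_Nx mouse 2 had a summed level of 12995 CPM for oxidative stress genes, the lowest of its group. Sham_Nx mouse 5 had a pancreatic sum of 612 CPM, above the rest of Sham_Nx.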

How the results depend on the processing

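The count of genes called in ORX_IH against Sham_Nx was within 1.5 times of 1385 under other scalings, filters, limma, DESeq2 and a split at library number 16. It was 118 with the 4 muscle-rich libraries left out, 494 with the 3 pancreas-rich libraries left out and 583 without ORX_IH 1 and ORX_IH 2 (a choice made after seeing the data), and 783 to 1853 when any 1 library was left out. Against ORX_Nx, where 14 were called, the count was 57 with a mean of at least 1 CPM, 712 with DESeq2, 1 with only the compared groups, 23 in library numbers 1 to 16 and 37 without ORX_Nx 4 and ORX_Nx 5. It was 0 with limma-trend, without the muscle-rich libraries, without the pancreas-rich libraries and without ORX_IH 1 and ORX_IH 2, and 0 to 198 when any 1 library was left out. Against Sham_IH, where 401 were called, it was 925 with no scaling, 867 with DESeq2, 622 with only the compared groups, 92 without the muscle-rich libraries and 0.888% of tested genes without the pancreas-rich libraries, 825 without ORX_Nx 4 and ORX_Nx 5, 121 without ORX_IH 1 and ORX_IH 2, and 208 to 614 when any 1 library was left out. DESeq2 gave 4 genes that differed from all 3 other groups and 63 interactions, where edgeR gave 0 of each. Leaving out libraries lowered some counts and raised others. ORX_Nx 4 and ORX_Nx 5 held the highest sums of Kupffer cell and neutrophil genes, and the count against Sham_Nx was 1853 without ORX_Nx 5 and 2002 without both. Against ORX_Nx the top count of 198 was without ORX_Nx 3. The cause of these differences was not tested. The Mup share differed by -5.44 percentage points without the muscle-rich libraries, with an exact permutation p of 0.1, the smallest possible there, and by -5.71 to -4.93 when any 1 mouse was left out. Mylpf, a muscle gene that was not called in the main test, changed sign without ORX_IH 1 and ORX_IH 2. There its log2 fold change was -1.89 and it passed (adjusted p = 0.0369 in edgeR). Sign changes between values neither of which passed are not counted as reversals. Same-numbered ORX_IH and Sham_Nx libraries had correlations of 0.251, -0.045, 0.101 and 0.004 for numbers 2 to 5. Libraries of unlike number had correlations of -0.276 to 0.195. So few pairs cannot decide whether replicate numbers pair the mice. With the replicate block 1073 genes were called against Sham_Nx, 0 against ORX_Nx and 326 against Sham_IH. Depth limits transcripts near 0 in Sham_Nx, such as Cyp2b13 and Cyp3a44, more than it limits abundant ones.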

Other observations

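Ribosomal protein genes, a group picked after its values were seen, were slightly higher in ORX_IH livers. Of 82 tested genes 38 were called higher and 0 lower in ORX_IH against Sham_Nx, where 3.49% of all tested genes were higher, and 80 had fold changes above 0, with a median log2 fold change of 0.22. Together they took 1.12 ± 0.0455% of counts in ORX_IH libraries and 0.972 ± 0.0298% in Sham_Nx libraries (SD, n = 5 and 4), without overlap. The median was -0.00 against ORX_Nx and 0.06 against Sham_IH. The count of called genes was 73 with no scaling factors, 12 without Sham_Nx 5, 17 without Sham_Nx 2 and 0 without the 4 muscle-rich libraries. Transcripts of ribosomal proteins are short and abundant. Over the shortest 20% of tested genes, up to 1167 bases, the median log2 fold change was 0.04.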
